A study of Mus musculus with 8 samples.

Results

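The miRNAs described here are the mature forms of mouse whose names begin with miR-297, miR-466, miR-467 or miR-669. They were chosen by name, with the table rows of one name summed, and kept if the sum was above 0 in at least 1 library. This gave 72 of the 80 names with these numbers, out of 880 mature miRNAs detected in all: 6 of miR-297, 27 of miR-466, 13 of miR-467 and 26 of miR-669. Small RNA was sequenced from splenic CD8+ T cells, giving 8 libraries in 4 groups of 2. The groups cross the genotypes WT and mCre with the sorted subsets TN and MP, as the titles spell them. In this field TN usually means true naive, and the design text writes VM, usually virtual memory, where the titles write MP. The series title names miR-29 and Cre, a recombinase. The labels name no promoter for Cre, no deleted sequence, no strain and no age for a sample, and the protocol covers adult and neonatal spleens together. Whether replicates stem from different mice is not stated; p-values here reflect library-to-library spread, possibly technical only.

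Most genes for these miRNAs sit side by side in an intron of Sfmbt2, a gene of the Polycomb family that is imprinted and expressed from the paternal copy in the placenta. The intron holds a tandem repeat of hairpins that is specific to rodents and is known for expression in embryonic stem cells and placenta. A hairpin is cut by Dicer into a 5p and a 3p arm; one of them is loaded into Argonaute, and bases 2 to 8 of the loaded arm, the seed, select its target mRNAs. In GRCm38, the build named mm10 in the submitters' processing notes, GENCODE M21 places 71 genes of these names on the plus strand of chromosome 2, from 10466663 to 10518279, a stretch of 51.6 kb. All 71 lie inside Sfmbt2 (10370510 to 10595253), and 0 of them overlap one of its exons; in the transcript Sfmbt2-201 the stretch falls within intron 10. The 71 comprise 5 miR-297, 23 miR-466, 14 miR-467 and 29 miR-669 genes, among them 10 copies of miR-467a, 12 of miR-669a and 8 of miR-466b. Another 10 genes with these names lie elsewhere in the genome.

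Mature sequences of 7 members were matched in the RefSeq table for GRCm38.p6, all from genes outside the Sfmbt2 intron. They are shown 5′ to 3′ because they display the dinucleotide repeats of these names; capitals mark the seed.
miR-466k (chr3:85467396-85467418, plus strand): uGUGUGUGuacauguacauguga
miR-466j (chr10:60960802-60960824, plus strand): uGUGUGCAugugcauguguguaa
miR-669n (chr3:115979905-115979924, plus strand): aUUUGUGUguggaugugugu
miR-467h (chr9:115381898-115381919, plus strand): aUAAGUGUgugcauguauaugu
miR-466i-3p (chr13:17747552-17747573, plus strand): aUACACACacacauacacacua
miR-467f (chr11:69635419-69635439, minus strand): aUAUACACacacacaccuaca
miR-467g (chr5:34732872-34732892, minus strand): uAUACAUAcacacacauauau
The first 4 run in UG and the last 3 in CA, the reverse complement of UG. The repeat does not tell the arm here: miR-466j and miR-467h lie in the 3′ part of their genes, as the CA forms do. All 7 hold UGUGUG or CACACA on the strand shown, against 32 of 1671 other mature names in the table (1.92%). No seed was shared between any of the 7. These members were scarce: miR-466i-3p had 255.66 counts over the 8 libraries, and the other 6 had from 0.13 (miR-467g) to 17.33 (miR-467h).

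Near-identical copies share reads, and the table shows it. The 72 names stood in 149 rows, and 14.2% of their values above 0 were whole to within 0.011, against 87.0% for other names that stood in 1 row. The 10 rows of miR-467a-5p held identical values in every library, as did the 12 rows of miR-669a-3p and miR-669o-3p together. Likewise 14 rows of miR-669a-5p and miR-669p-5p, and 12 rows of miR-466b-3p, miR-466c-3p and miR-466p-3p, could not be told apart by their values. A level given for one such name is therefore a share of a common pool, and the names that move together below are not independent measurements.

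The libraries held from 1936600 to 5230975 counts. Some facts of the libraries touch the results. miR-29a-3p, a form of the miRNA in the series title, differed between the genotypes in opposite directions in the 2 replicates of TN. It took 0.0736% of counts in the library labelled WT TN replicate 2 and 1.52% in the library labelled mCre TN replicate 2. In WT and mCre TN replicate 1 it took 0.340% and 0.162%. The labels give no expected direction for it in these libraries. Directions that involve genotype in TN draw on these libraries as labelled. The library labelled WT TN replicate 2 and both mCre MP libraries also held the most let-7 (69.4%, 64.0% and 60.0%, against 43.4% to 52.0% in the other 5) and the least miR-16-5p (0.128%, 0.103% and 0.196%, against 0.515% to 1.17%). The same libraries held the least miR-29a-3p (0.0736%, 0.07345% and 0.1256%, against 0.162% to 1.52% in the other 5). All 7 listed T lymphocyte miRNAs were detected, with summed levels of 49850 to 183500 CPM, the usual scaling of a count to its library's total, in TN and 54540 to 124900 in MP. Of the lists for other cells, the 2 myeloid forms summed to 6.94 to 10.3 CPM in TN and 1.40 to 13.7 in MP, the 3 erythroid forms to 1.55 to 5.62 and 0 to 10.01, the 4 endothelial and stromal forms to 22.2 to 59.3 and 34.1 to 109.2, and the 6 epithelial forms to 1282 to 3904 and 1984 to 4243; every listed form was above 0 in at least 1 library. In bulk samples such as these, fewer cells of a type and less RNA per cell cannot be told apart.

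One member outweighed the rest. miR-669c-5p held 76378 of the counts of the 72 members, and miR-467a-5p, the next, 8270. Its gene, Mir669c, lies on chromosome 2 at 10509296 to 10509404, inside the Sfmbt2 intron. The partner arm, miR-669c-3p, had 2 counts over all libraries. Scaled by TMM, edgeR's factors for library composition, miR-669c-5p stood at 539.3 and 6783 CPM in the WT TN libraries, 1719 and 1542 in WT MP, 3791 and 2375 in mCre TN, and 5825 and 3723 in mCre MP, in the order of replicates 1 and 2. The highest and the lowest of the 8 values were thus the 2 libraries labelled WT TN, and TN and MP overlapped. Its share of the member counts ran from 16.5% in WT TN replicate 1 (95% Wilson interval 15.9% to 17.2%) to 86.6% in mCre MP replicate 1 (86.0% to 87.2%). The 3 libraries rich in let-7 were also the 3 where this share was highest (85.5%, 86.6% and 77.7%); whether the 2 are linked was not tested. Intervals cover counting error only.

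**Figure D1:**
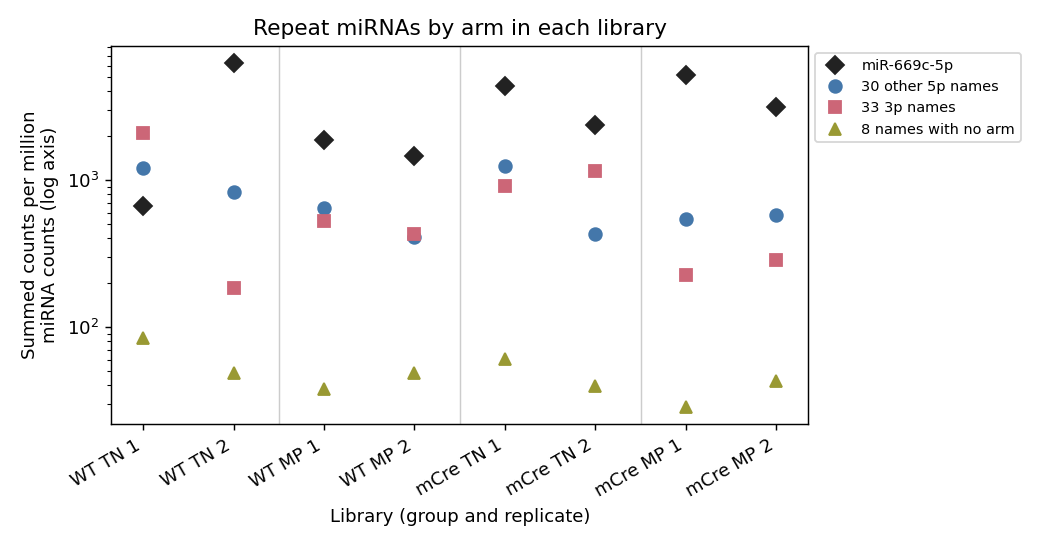
Summed level of the 72 members in each of the 8 libraries, as CPM of all miRNA counts on a log axis, split into miR-669c-5p, the 30 other 5p names, the 33 3p names and the 8 names with no arm given; each point is 1 library. The 3p names range from 185.0 to 2080 CPM, both in libraries labelled WT TN, while the other 5p names range from 410.1 to 1250 CPM.

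The remaining 71 members were modest in level. Together they held 3377 and 1058 CPM in the libraries labelled WT TN, 1207 and 889.8 in WT MP, 2214 and 1618 in mCre TN, and 797.8 and 900.2 in mCre MP, unscaled. The group means were 2217 ± 1639 and 1049 ± 224.5 in WT TN and WT MP, and 1916 ± 421.0 and 849.0 ± 72.4 in mCre TN and mCre MP (SD, n = 2 each). Both mCre TN libraries lay above both mCre MP libraries, whereas the library labelled WT TN replicate 2 fell between the WT MP libraries. By total count, 11 members had above 1000 over the 8 libraries, 21 had 100 to 1000, and 40 had under 100. Detection was broad but thin: 33 members were above 0 in all 8 libraries, 7 in 1 library only, and the number detected ran from 36 in mCre MP replicate 1 to 67 in WT TN replicate 1.

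The arms of these hairpins did not keep a fixed proportion across libraries. For miR-467a, whose 10 copies recur along the Sfmbt2 intron, the 3p arm made up 45.6% and 7.46% of the counts in the libraries labelled WT TN, 35.8% and 38.8% in WT MP, 24.99% and 72.9% in mCre TN, and 23.9% and 16.6% in mCre MP. The extremes were again second replicates of TN: 5.88% to 9.41% by Wilson interval in the library labelled WT TN replicate 2, and 70.0% to 75.6% in that labelled mCre TN replicate 2. The widest of the 8 Wilson intervals spanned 6.20 percentage points. Over all members without miR-669c-5p, the 3p share of counts with a named arm ran from 18.5% (16.8% to 20.2%) to 72.6% (71.3% to 73.9%) in those same libraries. The other library labelled WT TN stood at 63.2%, so replicates of 1 group lay far apart.

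**Figure D2:**
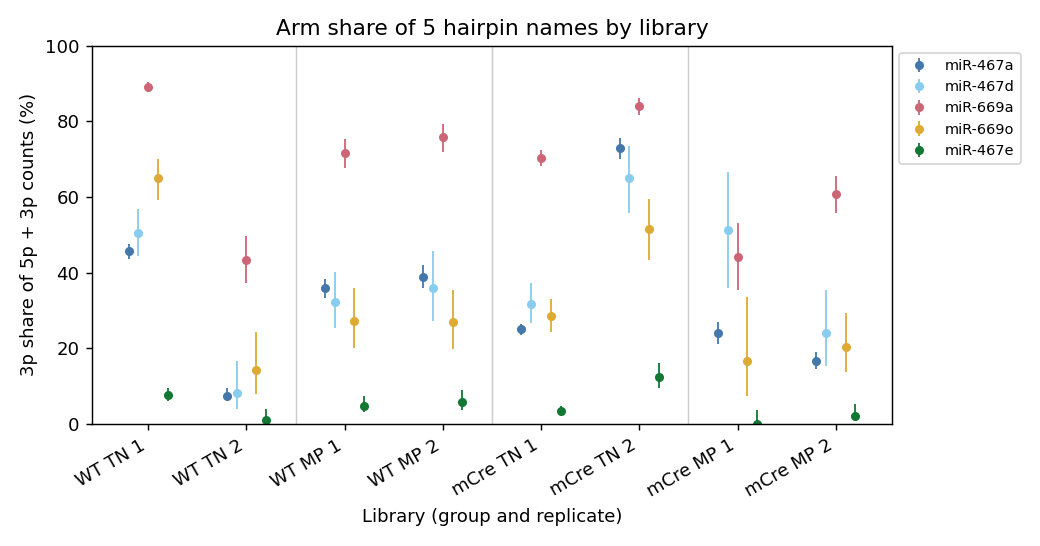
Share of the 3p arm in the summed 5p and 3p counts of 5 hairpin names in each library, in percent; bars are 95% Wilson intervals from counting alone. In miR-467a the share runs from 7.46% in the library labelled WT TN replicate 2 to 72.9% in that labelled mCre TN replicate 2, and the 3 lowest shares of miR-669a are in the 3 libraries with the most let-7. miR-669a and miR-669o divide the same 3p reads, so their shares are not separate observations.

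The arm shares of other hairpins varied in the same libraries or stayed one-sided. For miR-669a the 3p arm held 89.3% and 43.4% in the libraries labelled WT TN and 44.1% and 60.9% in mCre MP, with intervals up to 17.7 points wide. The more abundant of its 2 names was thus not the same in every library. Its 3p rows divide reads with miR-669o-3p and its 5p rows with miR-669p-5p, so this is not the arm ratio of a single hairpin. miR-467e, a single gene at 10505721 to 10505807 on chromosome 2, gave 5p counts nearly throughout: its 3p share lay between 0% and 12.3%. In contrast, the 3p arm made up 99.9% of miR-466d, 99.4% of miR-466f and 96.6% of miR-466b counts over all libraries. The 3p arms summed to 2080 and 185.0 CPM in the libraries labelled WT TN, 522.4 and 431.3 in WT MP, 903.0 and 1147 in mCre TN, and 227.2 and 284.1 in mCre MP. The 3 lowest of these sums belonged to the 3 libraries with the least miR-16-5p and the most let-7, and the part of that composition in the member differences was not tested.

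MP was compared with TN over both genotypes to ask what sets the sorted subsets apart. The filter on low counts kept 38 of the 72 members among 382 tested miRNAs; a member that passed through the group where it is high had to differ, so counts over the 38 are a description. 3p arms had the larger differences: 20 of 20 tested had a negative log2 fold change, with a median of -1.48, and 14 of 16 5p arms besides miR-669c-5p, with a median of -0.61. Over all 382 miRNAs 50.5% were below 0 and the median was -0.03. None of the 38 passed the threshold, an adjusted p under 0.05 (edgeR, quasi-likelihood F test, Benjamini-Hochberg over all miRNAs), against 9 of 382 (2.36%) in the whole table. The smallest edgeR adjusted p of a member was 0.304. At an unadjusted p under 0.05 there were 5 members, 13.2% of those tested, against 12.8% of all, so that share is near the background.

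Among the members with the smallest p was miR-669d-5p, whose 2 gene copies lie at 10468343 to 10468463 and 10471644 to 10471729 on chromosome 2. It stood at 10.1 and 8.98 CPM (TMM-scaled) in the libraries labelled WT TN, 9.93 and 9.33 in mCre TN, 4.71 and 4.89 in WT MP, and 1.06 and 2.72 in mCre MP. All 4 TN libraries lay above all 4 MP libraries, and the TN values were close together. The log2 fold change was -1.61 ± 0.60 (SE, edgeR adjusted p = 0.304), 9.60 ± 0.533 CPM in TN against 3.34 ± 1.82 in MP (SD, n = 4 each). These levels rest on few reads, 185 counts over the 8 libraries.

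miR-467e-5p was the other member without overlap. Its levels were 205.7 and 100.5 CPM in the libraries labelled WT TN, 165.5 and 115.4 in mCre TN, 100.3 and 76.1 in WT MP, and 52.2 and 74.6 in mCre MP. The lowest TN library and the highest MP library, 100.5 and 100.3, nearly met. The mean was 146.8 ± 48.1 CPM over the 4 TN libraries and 75.8 ± 19.6 over the 4 of MP (SD), with a log2 fold change of -0.97 ± 0.39 (SE, edgeR adjusted p = 0.310). Thus 2 of 38 members were lower in every MP library than in any TN library, 5.26%, and 16 of 382 miRNAs were (4.19%); 0 members were higher in every MP library, against 26 of 382 (6.81%). On unscaled CPM miR-467e-5p overlapped, at 92.4 in the library labelled WT TN replicate 2 and 109.7 in WT MP replicate 1, while miR-669d-5p did not.

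miR-669a-3p was the most abundant 3p arm. The name miR-669a, with the arm not given here, has been tied to restraint of muscle differentiation in cardiac progenitors. miR-669a-3p had 549.0 and 59.0 CPM in the libraries labelled WT TN, 211.7 and 278.7 in mCre TN, 99.5 and 98.9 in WT MP, and 27.4 and 88.9 in mCre MP. Of the 4 TN libraries 3 exceeded every MP library, and the library labelled WT TN replicate 2 lay below 3 of the 4. Its log2 fold change was -1.84 ± 0.69 (SE, edgeR adjusted p = 0.304). Its pool mate miR-669o-3p, with the same row values, gave -1.82 ± 0.70 (edgeR adjusted p = 0.304).

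The same library set the other abundant 3p arms apart. miR-467a-3p read 331.3 and 35.9 CPM in the libraries labelled WT TN, 157.8 and 250.8 in mCre TN, 133.6 and 98.4 in WT MP, and 100.3 and 63.7 in mCre MP. miR-466d-3p read 175.5, 21.3, 84.9 and 163.0 CPM in those 4 TN libraries, and 60.4, 58.7, 14.2 and 40.8 in the 4 of MP. In both, the library labelled WT TN replicate 2 was the only TN library that did not exceed every MP library. miR-466f-3p had 128.8, 35.9, 140.5 and 156.1 CPM in TN against 59.0, 72.6, 36.9 and 56.7 in MP, with the same exception. The log2 fold changes of miR-467a-3p, miR-466d-3p and miR-466f-3p were -0.99 ± 0.63, -1.44 ± 0.71 and -0.99 ± 0.51 (SE), with edgeR adjusted p of 0.630, 0.467 and 0.487.

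When the library labelled WT TN replicate 2 was left out, edgeR called 9 of 43 tested members (20.9%), all lower in MP, and 41 of 437 miRNAs (9.38%). They were miR-466a-3p, miR-466b-3p, miR-466d-3p, miR-466e-3p, miR-466f-3p, miR-467a-3p, miR-669a-3p, miR-669o-3p and miR-669p-3p; several share reads. miR-669a-3p then fell, with a log2 fold change of -2.29 ± 0.44 (SE, edgeR adjusted p = 0.0209) and so did miR-467a-3p, at -1.46 ± 0.33 (edgeR adjusted p = 0.0264). When WT TN replicate 1 was left out instead, 0 of 39 members were called, with miR-669a-3p at -1.20 (edgeR adjusted p = 0.882) and miR-467a-3p at -0.39 (edgeR adjusted p = 0.968). With both TN replicate 2 libraries left out it was 9 of 44 (20.5%, and 48 of 433 miRNAs, 11.1%), with miR-467e-5p and miR-669f-3p in place of miR-466e-3p and miR-669p-3p. DESeq2 on all 8 libraries called 3 members, miR-669a-3p, miR-669d-5p and miR-669f-3p (7.89% of 38, and 28 of 382 miRNAs, 7.33%). edgeR without the filter on low counts called 2 of 70, miR-669a-3p and miR-669f-3p (2.86%, and 20 of 878 miRNAs, 2.28%). The last 2 shares are near the background.

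**Figure D3:**
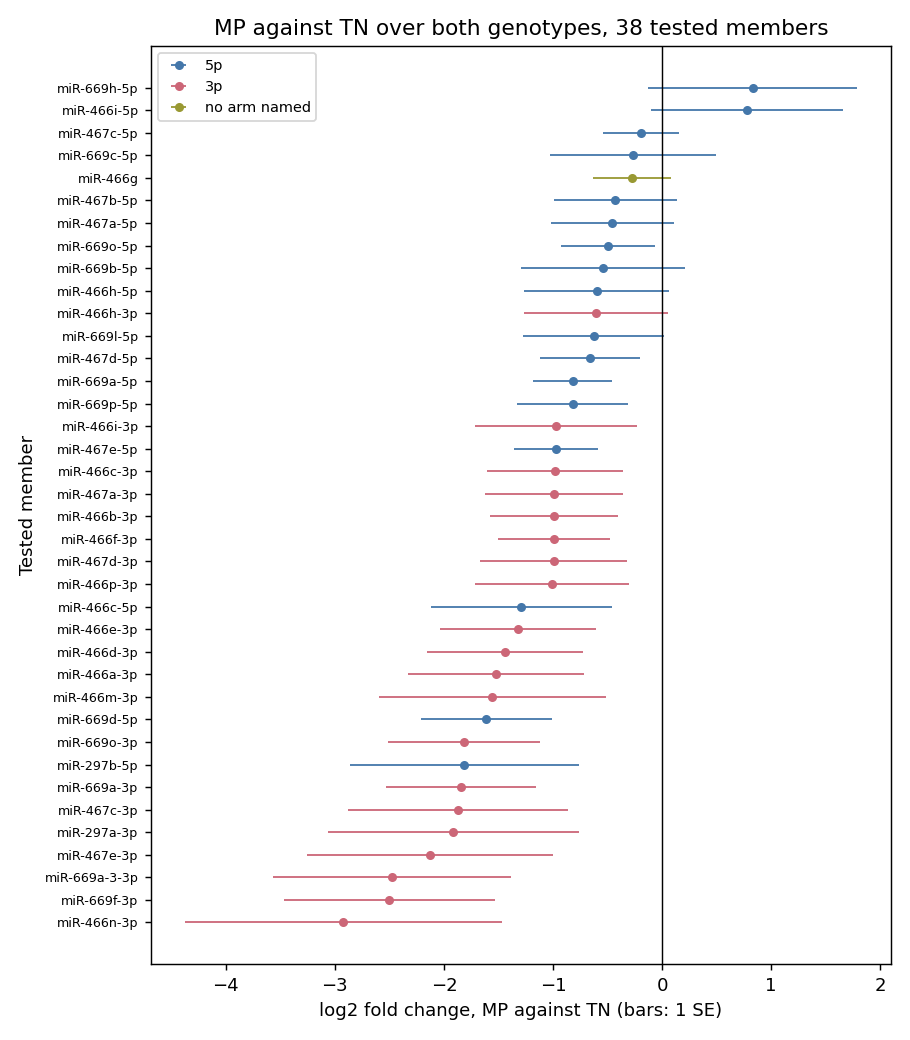
Log2 fold change of MP against TN over both genotypes for the 38 tested members, ordered by size, with bars of 1 SE; colours give the arm. All 20 3p arms lie below 0, 2 5p arms (miR-466i-5p at 0.78 and miR-669h-5p at 0.83) lie above it, and none passes the adjusted threshold.

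5p arms showed smaller differences. miR-467a-5p had 395.0 and 445.8 CPM in the libraries labelled WT TN, 473.6 and 93.2 in mCre TN, 239.4 and 154.9 in WT MP, and 319.3 and 320.8 in mCre MP. Here the library labelled mCre TN replicate 2 was the lowest of the 8, and the log2 fold change was -0.46 ± 0.56 (SE, edgeR adjusted p = 0.810). miR-467c-5p stayed between 58.0 and 104.6 CPM, with a log2 fold change of -0.20 ± 0.35 (edgeR adjusted p = 0.833). The log2 fold change was -0.82 ± 0.36 for miR-669a-5p (edgeR adjusted p = 0.382), -0.43 ± 0.56 for miR-467b-5p and -0.28 ± 0.36 for miR-466g, named without an arm. miR-467b is known as a regulator of lipoprotein lipase in macrophages. miR-669c-5p itself stood at -0.27 ± 0.76 (edgeR adjusted p = 0.888). Dropping the library labelled WT TN replicate 2 gave 0.91, and dropping both TN replicate 2 libraries 0.76, so its sign rests on that library.

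**Figure D4:**
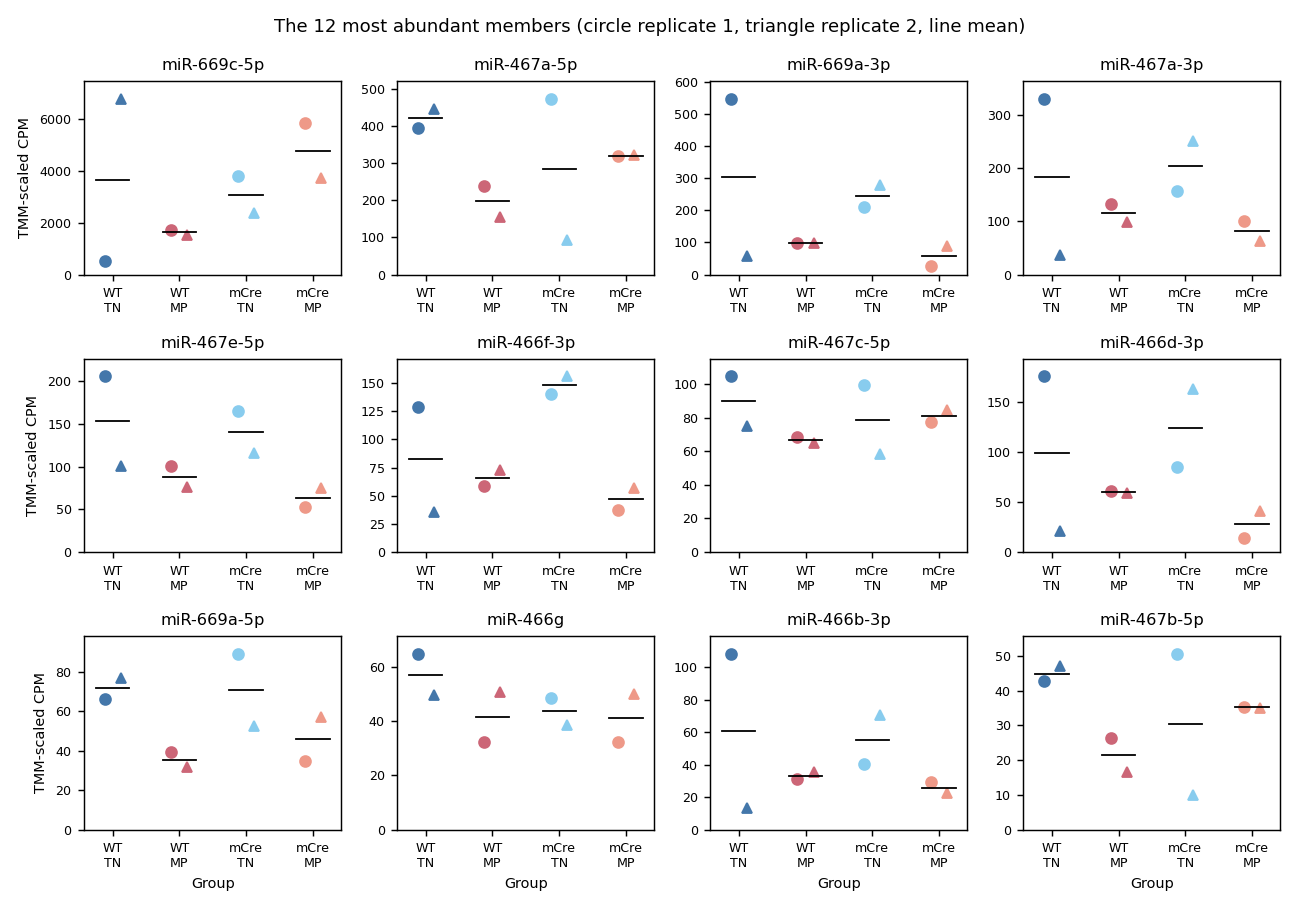
TMM-scaled CPM of the 12 most abundant members in each library, by group, on linear axes that start at 0; circles are replicate 1, triangles replicate 2 and lines group means. In miR-669a-3p and miR-467a-3p the WT TN replicates lie far apart (549.0 against 59.0 and 331.3 against 35.9 CPM), while miR-467c-5p stays within 58.0 to 104.6 CPM.

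Within WT, MP was set against TN to see the subsets without mCre. Of the 38 members 36 had a log2 fold change below 0 (46.9% of all miRNAs did), with a median of -0.85 against 0.07 over all 382. Neither any member nor any other miRNA passed in edgeR (0 of 382, 0%). No member had an unadjusted p under 0.05, against 33 miRNAs (8.64%). By DESeq2 12 of 382 miRNAs passed (3.14%), 0 of them members, and 2 of the 38 members had no adjusted p. miR-669a-5p had the smallest p: 66.2 and 76.9 CPM in the libraries labelled WT TN and 39.4 and 31.5 in WT MP, a log2 fold change of -1.01 ± 0.52 (SE, edgeR adjusted p = 0.647). Its TN values both exceeded its MP values, as in 10 of the 38 members (26.3%) against 51 of 382 miRNAs (13.4%); all 10 were 5p arms. No 3p arm had that separation: the library labelled WT TN replicate 2 lay below both WT MP libraries in 18 of 20 and between them in miR-669f-3p and miR-297a-3p. miR-466i-5p went the other way, at 0.267 and 3.93 CPM in TN and 5.26 and 5.44 in MP, and was the 1 member higher without overlap (27% of all miRNAs were), at counts of 1.09 to 19.65. Leaving out WT TN replicate 1 turned the member median to 0.75, with 16 of 39 below 0.

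Within mCre, as labelled, the 3p arms of TN and MP overlapped in 1 of 20. This rests on the label of mCre TN replicate 2, against which miR-29a-3p ran: the library labelled WT TN replicate 2, at 185.0 CPM of 3p arms, lay below both mCre MP libraries (227.2 and 284.1), so with those 2 TN labels exchanged the summed 3p levels would overlap. In all, 24 of 38 members were lower in both MP libraries than in both TN libraries (63.2%, against 35.6% of all miRNAs), of which 19 were 3p arms. A log2 fold change below 0 was seen in 32 of the 38 (54.7% of all miRNAs), with a median of -1.22 over the members and -0.18 over all 382. None passed (0 of 382, 0%, in edgeR), with 5 members and 79 miRNAs (20.7%) at an unadjusted p under 0.05. By DESeq2 46 of 382 miRNAs passed (12%), among them 1 member, miR-297b-5p (2.63% of 38). Without WT TN replicate 1, edgeR called 3 of 39 members, miR-466d-3p, miR-466f-3p and miR-669a-3p, all lower (7.69%), and 56 of 435 miRNAs (12.9%), so the members' share was below the background.

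miR-297, the smallest of the 4 name groups, summed to 26.1 and 40.1 CPM (unscaled) in mCre TN and to 0 and 6.21 in mCre MP, against 39.7 and 5.68 in the libraries labelled WT TN and 22.7 and 8.49 in WT MP. miR-297a-3p was 4.80 and 6.22 CPM in the mCre TN libraries and 0 and 0.388 in mCre MP, a log2 fold change of -4.43 ± 1.54 (SE, edgeR adjusted p = 0.210). The mCre MP values rest on 0 and 0.5 counts before rounding, so the size of that fold is uncertain. Its rows held the same values as those of miR-297b-3p and miR-297c-3p, a shared pool. miR-297b-5p was 11.3 and 24.5 against 0 and 3.495 CPM, a log2 fold change of -3.25 ± 1.34 (edgeR adjusted p = 0.227). All 6 miR-297 names were at 0 in mCre MP replicate 1, where 3 counts, the most that a count of 0 was taken to allow, are 1.40 CPM. miR-466n-3p had 0 counts in mCre MP and 36 in mCre TN, at least 6-fold lower on TMM-scaled library sizes when 3 counts are allowed for the group as a whole. miR-669d-5p was 9.93 and 9.33 CPM against 1.06 and 2.72, and miR-466f-3p 140.5 and 156.1 against 36.9 and 56.7, at log2 changes of -2.30 ± 0.81 and -1.66 ± 0.66 (edgeR adjusted p = 0.210 and 0.226). In the other direction, miR-669h-5p had 10.6 and 0.691 CPM in TN against 30.1 and 18.6 in MP, and was the 1 member higher without overlap (29.6% of all miRNAs were).

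The genotypes were compared within MP, where miR-29a-3p was lower in both mCre libraries than in both WT libraries. Both mCre MP libraries also held more let-7 (63.95% and 60.04%, against 43.39% and 45.95% in WT MP) and less miR-16-5p. Genotype and this composition were thus not separated here, and the part of composition was not tested. Members split by arm: 20 of 20 3p arms had a negative log2 fold change in mCre, with a median of -0.75, and 8 of 16 5p arms did, with a median of -0.05. Under RLE factors, another scaling, in DESeq2, and with TMM factors computed without the members, 19 of 20 3p arms were below 0. Over all 382 the median was -0.25 and 58.9% were below 0. Both mCre libraries lay below both WT libraries in 19 members (50.0%, against 38.7% of all miRNAs), 15 of them 3p arms, and above them in 5 (13.2%, against 27.2%). None passed in edgeR (0 of 382, 0%; 0 members and 41 miRNAs (10.7%) at an unadjusted p under 0.05). By DESeq2 0 members passed.

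miR-669c-5p was on the high side of that comparison. At 5825 and 3723 CPM in mCre MP against 1719 and 1542 in WT MP, it had a log2 fold change of 1.55 ± 0.98 (SE) and an edgeR adjusted p of 0.471. With both TN replicate 2 libraries left out it was the 1 member of 44 called (1.49 ± 0.38, edgeR adjusted p = 0.0261), a share of 2.27%, below the 12.7% of all miRNAs (55 of 433). miR-669h-5p was 30.1 and 18.6 against 7.48 and 6.52 CPM (1.79 ± 1.15, edgeR adjusted p = 0.472), and miR-467a-5p 319.3 and 320.8 against 239.4 and 154.9. On the low side stood miR-297a-3p, at 0 and 0.388 against 4.71 and 1.09 CPM (-3.52 ± 1.55, edgeR adjusted p = 0.397). In mCre MP this is 0 and 0.5 counts before rounding, so the size of the fold is uncertain. miR-467e-3p was 0 and 1.55 against 4.99 and 4.62 CPM (-2.47 ± 1.53, edgeR adjusted p = 0.459), and miR-466n-3p had 0 counts against 12, at least 2.45-fold lower by the same scaling and allowance. This comparison shares its mCre MP libraries with that of MP and TN within mCre, so the 2 are not separate evidence on those libraries.

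Within TN no member passed between the genotypes. Of the 38 members 23 were below 0 (48.2% of all miRNAs were), with a median log2 fold change of -0.14, against 0.02 over all 382. In edgeR 0 of 382 miRNAs passed (0%; 0 members and 12 miRNAs, 3.14%, at an unadjusted p under 0.05), and in DESeq2 0. The smallest p belonged to miR-466f-3p, at 140.5 and 156.1 CPM in the libraries labelled mCre and 128.8 and 35.9 in those labelled WT (0.84 ± 0.65, SE, edgeR adjusted p = 0.949). It was among 2 members higher without overlap (5.26%, against 15.7% of all miRNAs), with miR-669b-5p; miR-466g was the 1 lower (6.81% of all miRNAs were). Dropping WT TN replicate 1 moved the median to 2.00, and dropping the library labelled WT TN replicate 2 moved it to -0.53. Without both TN replicate 2 libraries, 1 library stands against 1, mCre TN replicate 1 against WT TN replicate 1. Then 23 of 24 3p arms were below 0, with a median of -1.38, against 12 of 20 and -0.15 with all libraries. The 3p arms summed to 903.0 and 2080 CPM (unscaled) in those libraries, the latter the highest of all libraries. Several of these names share reads. The genotype effect was also set against itself between MP and TN. The difference was below 0 in 30 of the 38 (58.4% of all miRNAs), but in 20 of 38 with TMM factors computed without the members, and the median was -0.37 (all miRNAs -0.24). None passed in edgeR (0 of 382, 0%), with 0 members and 53 miRNAs (13.9%) at an unadjusted p under 0.05. In DESeq2 0 members passed, against 17 of 382 miRNAs (4.45%), and 8 of the 38 members had no adjusted p. The smallest edgeR adjusted p of a member was 0.351, for miR-297a-3p (-4.05 ± 1.93, SE), which had 0 and 0.5 counts in mCre MP. Without WT TN replicate 1, 4 members passed: miR-466d-3p, miR-466f-3p and miR-467a-3p below 0 and miR-669c-5p above it (10.3% of 39, and 68 of 435 miRNAs, 15.6%). Without both TN replicate 2 libraries, again with 1 library in each TN group, 11 of 24 3p arms were below 0.

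Other miRNAs with a UG or CA repeat were followed for comparison. Of the 32 other mature names with UGUGUG or CACACA, 13 were detected and 7 tested. Of these, 5 were lower and 2 higher in MP than in TN over both genotypes, with a median of -0.66, and 0 passed. Over all 382 miRNAs 50.5% were lower. The 5 were let-7b-5p, let-7k, miR-342-3p, miR-32-3p and miR-574-3p, and the 2 were miR-1187 and miR-574-5p. They were listed by sequence alone, and let-7 is itself part of the composition by which the libraries differed. miR-574-5p, a UG-rich miRNA from an intron of Fam114a1, held 0.992 and 17.0 CPM (unscaled) in the libraries labelled WT TN, 20.2 and 14.5 in mCre TN, 20.03 and 15.3 in WT MP, and 30.4 and 15.7 in mCre MP. It was thus lowest in WT TN replicate 1, the library where the member 3p arms were highest, and it resembled miR-669c-5p in that.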

How the data were processed

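The authors deposited 1 table of expected counts, with a row for each mature miRNA on a precursor; its decimals show, from the values, that reads matching several rows were divided. Per the submitters' processing notes the build was mm10; the aligner and counter are not stated in the labels. Rows of a name were summed and rounded. filterByExpr (minimum count 10, minimum total 15) kept 382 miRNAs. edgeR 4.0.16 in R 4.3.3 with TMM factors and robust quasi-likelihood F tests fitted the 4 groups (4 residual degrees of freedom) or subset plus genotype (5), with Benjamini-Hochberg adjustment over all miRNAs; SE is the absolute log2 fold change over the square root of F. DESeq2 1.42.0, RLE and total count scaling, TMM without the members, no filter, a replicate block, left-out libraries and members merged by number and arm (added after seeing the data) were alternatives. Seed groups and a GC trend were planned but not run, since 7 members have a sequence in the table used. Members and lists were chosen with earlier results of these data known. Named members are the 12 most abundant, their partner arms, any past the threshold, and the 3 with the smallest p per direction and comparison; others are named as examples, chosen after their values were seen. The fit was tested on simulated data for MP against TN over both genotypes. It called 19.9% of 2-fold, 64.1% of 4-fold and 92.6% of 8-fold changes, so most 2-fold changes were missed. Over 3 draws, 201, 192 and 189 simulated miRNAs carried these changes and 526 carried none. So large a changed part loosens the Benjamini-Hochberg cut-off. These rates may thus be too high for the real data, where 9 of 382 miRNAs passed. Whether replicate numbers pair the libraries was not settled.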

Additional observations from a re-analysis of the deposited data

Results flagged for a closer look

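Among 54 sets of 4 libraries (named members and their sums, in TN and in MP), 4 had a library far from the other 3 by Dixon's criterion. Chance gives about 1 in 20, so the number flagged is near chance, and the sets are not independent. In MP, mCre MP replicate 1 was lowest for miR-669a-3p, at 27.4 CPM against 88.9 to 99.5 in the other 3, for its pool mate miR-669o-3p, at 2.64 against 8.16 to 9.14, and for miR-669f-3p, at 0 against 5.54 to 6.60. The first 2 share reads and count as 1 observation. miR-466n-3p was highest in WT MP replicate 1, at 3.05 CPM against 0 to 0.272, which rests on 11 counts there and 1 in WT MP replicate 2.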

How the results depend on the processing

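The number of members past the threshold was 0 in all 6 comparisons and stayed 0 under RLE, total count scaling and TMM without the members. For MP against TN over both genotypes it was 2 without the filter (20 of 878 miRNAs in all), 3 with DESeq2 (28 of 382) and 9 without both TN replicate 2 libraries (48 of 433); leaving out each library gave 0 to 9 (41 of 437 miRNAs at the 9). Within mCre it was 1 with DESeq2 (46 of 382 miRNAs in all) and 0 to 3 with a library left out (56 of 435 at the 3). For mCre against WT in MP it was 1 without both TN replicate 2 libraries (55 of 433). For the difference between subsets it was 0 to 4 with a library left out (68 of 435 at the 4). Wherever members were called in these 3 comparisons, their share was below that of all miRNAs. The cause was not tested. miR-669c-5p reversed to 0.758 without both TN replicate 2 libraries and to 0.912 without that labelled WT TN replicate 2 (range -0.831 to 0.912 with a library left out). The member median for MP against TN over both genotypes ran from -1.46 to -0.67 with a library left out. Scaling moved the median of all miRNAs within WT from 0.07 to -0.28 (TMM without the members), and the member median there to -1.21. Merged by number and arm, 0 of 10 sets passed in any comparison; the log2 fold change of miR-669 3p was -2.03 ± 0.69 (edgeR adjusted p = 0.272) for MP against TN. With the replicate block, 0 members passed in any comparison, and the calls over all miRNAs for MP against TN over both genotypes were 2 in place of 9. Deviations of same-numbered libraries correlated between -0.323 and 0.409 over all miRNAs. Over the tested members they correlated between -0.762 and 0.483. With 2 libraries per group, this cannot decide whether the numbers pair them. The summed levels kept their direction without let-7 in the total, with TMM scaling and with the highest row of each name: the 3p arms were -1.19 in MP against TN (log2), and -1.23 without let-7. DESeq2 gave no adjusted p for 3 of 38 members in MP against TN over both genotypes. It gave none for 2 members within WT, 6 within mCre and 8 in the difference between subsets. Seed groups and a GC trend were not run, since 7 of 72 members had a sequence. In mCre MP replicate 1, with 2140363 counts, 36 members were above 0, and in the library labelled WT TN replicate 2, with 1936600, 48; the part of depth in this was not tested.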
